A study of Mus musculus with 12 samples.

Results

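Exons that a colon transcript can either keep or leave out, that are longer than 51 bases and whose length is not a multiple of 3, were followed in RNA of 12 mouse colon samples. The authors' event table lists each skipped exon in an included form and a skipped form. Pairing the forms by gene, start and end gave 10709 single skipped exons, of which 5175 in 3794 genes met the length rule. Another 4051 were longer than 51 bases and kept the frame, and 1483 had 51 bases or fewer. The samples were colon labelled control, DSS or FGF1, with 4 in each group. DSS is dextran sulfate sodium, which injures the colon lining, and FGF1 is fibroblast growth factor 1, given as a recombinant protein per the design text. The labels give neither dose nor duration and name no strain, age or genotype, and whether DSS was given to the FGF1 mice is not stated. They do not say that samples came from separate animals, so p-values measure only the spread between these samples. RNA came from whole colon, 5 µg of total RNA per library and oligo(dT) beads, per the labels.

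An internal exon can be skipped when the splicing machinery joins its neighbours directly. Where the exon's length is no multiple of a codon, the 2 forms are read in different frames behind it, and one of them usually meets an early stop codon. Transcripts whose stop lies well upstream of the last exon junction are prone to nonsense-mediated decay, a surveillance pathway in which UPF1, the SMG proteins and the exon junction complex lead to breakdown of the RNA. Many splicing regulators, among them SR proteins and hnRNPs, carry such exons (poison exons) in their own genes and limit their own mRNA with them. Skipped exons of this kind also make alternative protein tails, as in the adhesion receptor Ceacam1.

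The exons below are printed because their sequence shows how inclusion or skipping ends the reading frame. The first set holds exons that bring their own stop codon, and the coding bases of each are given up to the stop (transcripts of GENCODE M21, GRCm38, 5′ to 3′, stop codon in capitals). Srsf6, Rbm39, Hnrnpl and Chd2 code for an SR protein, an RNA-binding splicing coactivator, an hnRNP and a chromatin remodeller. Their exons lie at chr2:162932815-162933082 (plus strand, 268 bases), chr2:156178880-156178952 (minus, 73 bases), chr7:28817335-28817404 (plus, 70 bases) and chr7:73454691-73454803 (minus, 113 bases). Of the transcripts that include each exon, the one of highest level is annotated for decay.
Srsf6 exon: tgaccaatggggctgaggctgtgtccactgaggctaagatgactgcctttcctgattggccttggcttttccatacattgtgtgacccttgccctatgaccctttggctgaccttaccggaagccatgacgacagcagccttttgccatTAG
Rbm39 exon: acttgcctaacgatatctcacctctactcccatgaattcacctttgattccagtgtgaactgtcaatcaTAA
Hnrnpl exon: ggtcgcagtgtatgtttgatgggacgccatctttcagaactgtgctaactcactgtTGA
Chd2 exon: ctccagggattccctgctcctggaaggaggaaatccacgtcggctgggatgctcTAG
In the second set skipping ends the frame. Each line named as a junction gives the last 30 bases before the exon, joined to the bases behind it, up to the first stop codon in that frame. It was read from the included transcript with the exon removed. The listed skipped forms of Prpsap2 and Fam162a are annotated as processed transcripts, neither for protein nor for decay. Clk1 codes for a kinase of SR proteins (chr1:58420121-58420211, minus, 91 bases, exon 4 of 13), Prpsap2 for a partner of phosphoribosyl pyrophosphate synthetase (chr11:61755410-61755462, minus, 53 bases, exon 4 of 12) and Fam162a for a mitochondrial protein (chr16:36049842-36049950, minus, 109 bases, exon 3 of 5).
Clk1 exon: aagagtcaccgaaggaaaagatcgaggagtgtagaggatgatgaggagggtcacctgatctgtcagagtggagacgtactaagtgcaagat
Clk1 junction after skipping: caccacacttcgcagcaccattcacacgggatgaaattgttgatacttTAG
Prpsap2 exon: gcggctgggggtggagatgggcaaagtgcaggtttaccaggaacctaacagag
Prpsap2 junction after skipping: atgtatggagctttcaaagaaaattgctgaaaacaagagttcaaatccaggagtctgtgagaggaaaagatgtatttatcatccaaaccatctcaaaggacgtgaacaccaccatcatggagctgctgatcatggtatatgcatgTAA
Fam162a junction after skipping: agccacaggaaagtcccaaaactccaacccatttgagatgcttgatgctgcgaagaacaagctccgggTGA
The third set holds exons between 2 protein-coding forms, where neither form meets a stop far from its end. They are the Ceacam1 exon that opens the long cytoplasmic tail (chr7:25465468-25465520, minus, 53 bases) and the exon near the end of the calcium pump gene Atp2a3 (chr11:72989475-72989560, plus, 86 bases).
Ceacam1 exon: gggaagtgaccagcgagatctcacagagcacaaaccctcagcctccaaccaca
Atp2a3 exon: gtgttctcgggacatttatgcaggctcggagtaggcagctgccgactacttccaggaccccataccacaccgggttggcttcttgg

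The 5175 exons had a median length of 116 bases (quartiles 85 and 158, range 52 to 5527) and a median GC content of 50%. Lengths left a remainder of 1 base in 2554 and of 2 bases in 2621. Of the 3794 host genes, 2773 held 1 such exon and 24 held 5 or more, with at most 7 in a gene. A position in an annotated transcript was found for 5132 exons. Of these, 2205 (43.0%) lay within the coding sequence, 777 in the 5′ UTR, 766 held the stop codon, 323 the start of the coding sequence, 117 lay in the 3′ UTR and 944 in a transcript with no coding sequence. Among frame-keeping exons over 51 bases, 2454 of 3977 (61.7%) lay within the coding sequence. At the edge of the rule, a 52-base exon of Cuta was included at 93.0% ± 4.53 in control and a 52-base exon of Cyp4f16 at 7.80% ± 7.25 (SD, n = 4). Just outside it, 51-base exons of Rbm39 and Uap1 were included at 21.8% ± 19.95 and 73.1% ± 10.5.

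Reading the transcripts through the new junctions showed how often the frame ended early. Skipping left a stop codon more than 50 bases before the last junction in 1416 of 1951 exons that could be read (72.6%), against 7 of 2184 frame-keeping exons (0.321%). The first stop ended a median of 35 bases behind the skipping junction (quartiles 15 and 74). In the other direction, inclusion gave such an early stop in 1273 of 1774 exons (71.8%), in 1048 of them inside the exon itself, against 527 of 2443 frame-keeping exons (21.6%). These shares follow largely from the length rule and from the annotation, and use no measured level.

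Inclusion is the FPKM of the transcripts that carry the exon over the FPKM of both forms, in percent. FPKM counts fragments scaled for transcript length and library total. Each form sums whole transcripts, which may differ elsewhere in the gene: in 242 of the 727 tested exons the leading transcripts of the 2 forms differed at this exon's junctions alone. A library has a value only where both forms are listed there, so inclusion is never exactly 0% or 100%. Libraries listed between 2428 (DSS 3) and 3132 (control 3) of the exons, and 1134 exons were listed in all 12 libraries. The annotated type given for a form is that of its leading transcript, the one of highest mean level over the 12 libraries. Over the 1042 exons with at least 1 FPKM in every library, inclusion followed which form codes for protein.

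Where the included form was annotated for nonsense-mediated decay and the skipped form for protein (192 exons), the median inclusion of a control library was 4.81% ± 0.606, of a DSS library 5.26% ± 1.09 and of an FGF1 library 4.15% ± 0.416 (mean ± SD over 4 libraries). Where the skipped form was the one annotated for decay (139 exons), it was 89.2% ± 1.11, 89.6% ± 3.56 and 88.9% ± 1.05. Exons with 2 protein-coding forms (326) lay between, at 39.5% ± 2.88, 37.8% ± 3.65 and 39.8% ± 1.17. The coding form was thus the major one, and the 3 groups overlapped in each of these classes. Mean inclusion was over 50% in 15 of the 192 exons of the first class and in 116 of the 139 of the second. Forms of another annotated type, such as retained introns, showed a similar split: 5.35% ± 0.335 inclusion in control where they were the included form (123 exons) and 89.7% ± 1.36 where they were the skipped form (169 exons). Over the 192 and 139 exons that pair a decay form with a coding form, the decay forms carried 10.1% ± 0.454 of the FPKM of both forms in control. The share was 9.82% ± 1.37 in DSS and 10.1% ± 0.471 in FGF1. With transcript values taken also from a transcript's other events, which adds exons with a form near 0, the medians moved to 0.941% and 99.3% in control. The split is not particular to frame-shifting exons. On values as deposited, frame-keeping exons over 51 bases had control medians of 8.42% ± 1.06 where the included form was annotated for decay (78 exons). They were at 77.3% ± 3.68 where the skipped form was (21 exons) and at 43.7% ± 1.74 with 2 coding forms (596 exons).

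**Figure D1:**
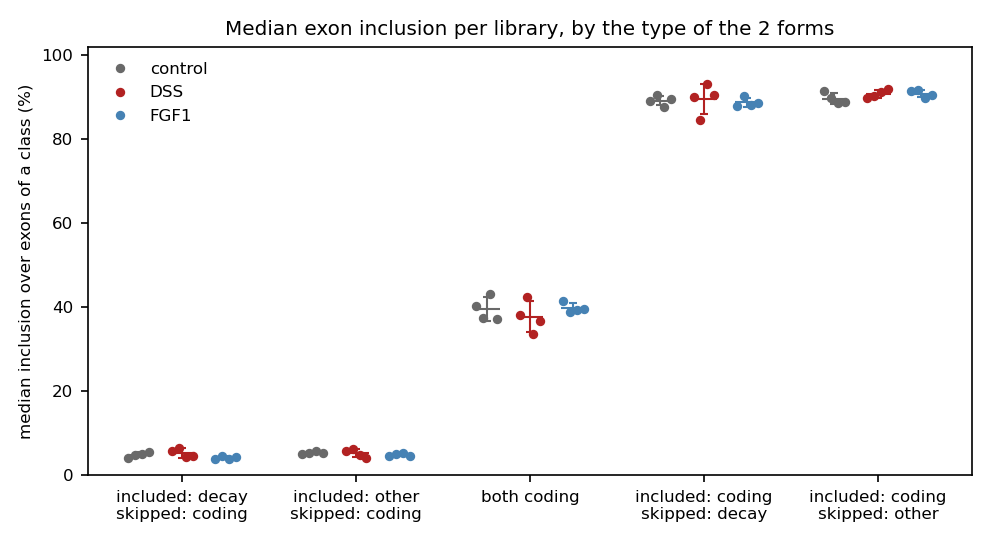
Median inclusion (%) over the exons of a class in each library (points), with the mean and SD of the 4 libraries of a group, for 5 classes of frame-shifting exons by the annotated type of the included and the skipped form. Libraries sit near 5% where only the skipped form codes for protein, near 40% where both do and near 89% where only the included form does, with overlapping groups throughout.

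Comparing the groups, 727 of the exons, in 635 genes, were tested: those with at least 1 FPKM in all 12 libraries and a mean inclusion between 5% and 95%. Their mean inclusion was under 20% in 210, between 20% and 80% in 325 and over 80% in 192. The median SD between libraries of a group was 6.71 points in control, 7.41 in DSS and 6.27 in FGF1. Of these exons, 47 share an edge with another tested one and are not independent of it. In whole tissue, an exon's inclusion also moves with which cells contribute RNA, and fewer cells of a type cannot be told apart from less RNA per cell. The mean log2 level of 11 smooth muscle markers ran from 7.27 to 8.88 in control, 5.08 to 6.85 in DSS and 6.002 to 8.55 in FGF1, and that of 10 fibroblast and matrix markers from 4.68 to 5.14, 1.39 to 3.34 and 3.15 to 4.53. The 11 colon epithelium markers overlapped in all groups, at 9.18 to 9.53, 9.08 to 9.62 and 9.26 to 9.56. The 5 endothelial markers were at 2.60 to 2.83, 0.67 to 1.93 and 1.54 to 2.27, the 6 leukocyte markers at 2.53 to 3.12, 1.57 to 2.06 and 1.72 to 2.93, and the 6 markers of enteric neurons and glia at 2.26 to 3.37, 1.09 to 2.21 and 1.55 to 2.22. By this mean log2 level of FPKM as deposited, all lists but the epithelial one were lower in every DSS library than in every control library. The summed FPKM of the enteric neuron and glia list overlapped, at 34.1 to 87.3 in control and 8.30 to 35.8 in DSS. No marker of these lists was at 0 in any library. The part of this shift in the inclusion values was not tested.

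In DSS against control, 0 of 727 exons passed an adjusted p of 0.05 (limma, Benjamini-Hochberg over all 1690 skipped exons tested, of which 0.0592% passed), and 56 had an unadjusted p under 0.05, or 7.70%, against 8.64% of all skipped exons. Inclusion was higher in 25 of the 56 (3.44% of the 727, against 4.32% of all) and lower in 31 (4.26%, against 4.32%). The 2 groups did not overlap in 36 exons, 4.95% against 5.27% of all. The median difference was -0.391 points, beside -0.133 over all exons tested, and the median size of a difference 4.07 points. A difference of at least 20 points was seen in 46 exons (6.33%, against 8.70% of all), 17 higher and 29 lower, beside 71 higher and 76 lower among all 1690. The exons named next are those of smallest p, and none passed the test.

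Atp2a3, the sarco/endoplasmic reticulum calcium pump found in epithelium, included its 86-base exon at 56.6%, 53.01%, 47.1% and 50.2% in control 1 to 4, at 42.8%, 35.8%, 35.2% and 36.7% in DSS 1 to 4, and at 39.0%, 45.5%, 47.4% and 45.4% in FGF1 1 to 4. All DSS libraries lay below all control libraries (-14.1 ± 2.71 points, SE, adjusted p = 0.117), and FGF1 overlapped both groups. The included form went from 54.7 ± 5.11 to 29.8 ± 7.99 FPKM between control and DSS, while the skipped form was at 51.3 ± 7.20 and 49.1 ± 11.1. Atp2a3 mRNA as a whole fell in DSS (log2 fold change -0.53 ± 0.14, adjusted p = 0.0327). A 73-base exon with the same start was included at 49.6% ± 3.83 in control and 39.4% ± 2.03 in DSS.

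The 136-base exon in the 3′ UTR of Hnrnpa2b1, an hnRNP that binds many mRNAs, belongs to 3 transcripts, and the one of highest level is annotated for decay. It was included at 37.3%, 37.0%, 29.9% and 29.6% in control, 17.6%, 21.6%, 19.6% and 23.2% in DSS and 29.3%, 26.1%, 31.3% and 19.4% in FGF1. Control and DSS did not overlap (-13.0 ± 2.94 points, adjusted p = 0.187), and FGF1 lay across the gap. The decay-annotated form was at 28.2 ± 2.88, 20.3 ± 2.13 and 24.5 ± 4.89 FPKM and the skipped, coding form at 56.4 ± 6.97, 79.7 ± 11.9 and 67.7 ± 4.85. Together the 2 forms held 84.6 ± 6.32, 100 ± 12.8 and 92.2 ± 2.98 FPKM. All listed transcripts of the gene held 427 ± 35.3, 398 ± 56.2 and 434 ± 22.2, so most Hnrnpa2b1 mRNA is in neither form. The leading transcripts of the 2 forms also differ elsewhere in the gene.

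Tjap1 codes for a protein of the tight junction, and its 130-base exon lies in the 5′ UTR (chr17:46271800-46271929, minus strand). Inclusion was 33.1%, 15.5%, 7.24% and 18.5% in control, 62.8%, 93.1%, 66.4% and 36.4% in DSS and 33.8%, 26.2%, 25.8% and 19.1% in FGF1. Every DSS library lay above every library of the other 2 groups. The difference was 46.1 ± 10.1 points in DSS against control (adjusted p = 0.169) and -38.4 ± 10.1 in FGF1 against DSS (adjusted p = 0.388). Leaving out DSS 4, the lowest of its group, brought the first difference to 55.5 points and under the threshold (adjusted p = 0.0467). DSS 4 is the DSS library nearest the controls, so the call without it is no support for a difference. The skipped form was at 7.76 ± 2.06 FPKM in control, 1.79 ± 0.977 in DSS and 5.57 ± 1.20 in FGF1, and Tjap1 mRNA fell in DSS against control (log2 fold change -0.51 ± 0.13, adjusted p = 0.0306).

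Pstk, a kinase in the synthesis of selenocysteine, has a 295-base second exon whose skipping puts a stop codon 9 bases behind the junction. It was included at 59.5%, 57.6%, 40.2% and 47.8% in control, 83.9%, 72.5%, 82.3% and 73.4% in DSS and 58.2%, 76.5%, 57.4% and 69.6% in FGF1. All DSS libraries lay above control (26.7 ± 5.89 points, adjusted p = 0.169), with FGF1 between and overlapping both. The exon of Capn15, a protease of the calpain family, holds the start codon (289 bases) and was included at 53.3% ± 21.03 in control, 14.6% ± 7.60 in DSS and 26.5% ± 9.79 in FGF1 (-38.6 ± 9.40 points in DSS against control, adjusted p = 0.191). The leading transcript of the skipped Capn15 form is a retained intron, which differs from the included form elsewhere too. Control and DSS libraries did not overlap, but 2 of the controls were at 75.9% and 66.4% and the other 2 at 35.1% and 35.7%.

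In FGF1 against DSS, 1 of 727 exons passed (0.138%), beside 0.118% of all skipped exons tested, and 39 had an unadjusted p under 0.05 (5.36%, against 5.86% of all). Inclusion was higher in FGF1 in 20 of the 39 (2.75%, against 3.25% of all) and lower in 19 (2.61%, against 2.6%), and the groups did not overlap in 30 exons (4.13%, against 4.62% of all). The median difference was 0.341 points and the median size 4.46 points.

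The exon that passed was the 79-base second exon of Fam241b, in the 5′ UTR (chr10:62110236-62110314, minus strand). Its forms are single protein-coding transcripts whose splice junctions differ at this exon alone. Their starts and ends were not compared. Inclusion was 43.5%, 65.3%, 52.3% and 71.5% in control, 25.2%, 36.3%, 28.8% and 16.0% in DSS and 69.3%, 74.2%, 71.6% and 72.0% in FGF1. All DSS libraries were lower than all others, and the FGF1 libraries lay within 5 points of each other near the top of the control range. Inclusion rose by 45.2 ± 6.14 points from DSS to FGF1 (adjusted p = 0.0138) and differed by -31.6 ± 6.14 points between DSS and control (adjusted p = 0.117). The included form was at 3.72 ± 0.848, 2.43 ± 0.801 and 5.67 ± 0.661 FPKM and the skipped form at 2.66 ± 0.788, 6.76 ± 1.75 and 2.23 ± 0.270 in control, DSS and FGF1. Fam241b mRNA as a whole did not pass in any comparison (7.95 ± 0.435, 11.3 ± 2.71 and 9.66 ± 1.43 FPKM, adjusted p = 0.0786 for DSS against control). The direction held in all 21 alternatives, but the call held in 11, with adjusted p from 0.00851 to 0.139. It ended without DSS 1 (0.0743), DSS 3 (0.0604), DSS 4 (0.0592) or any single FGF1 library (0.0508 to 0.0686), without DSS 3 and DSS 4 together (0.139), without control 3 and FGF1 3 together (0.129) and with the replicate number as a block (0.0727).

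The other exons of smallest p in this comparison did not pass. Dusp12, a dual-specificity phosphatase, had its 119-base exon included at 48.5%, 53.4%, 45.6% and 35.0% in DSS and 75.2%, 71.2%, 58.6% and 71.3% in FGF1, without overlap (23.4 ± 5.79 points, adjusted p = 0.299). This exon lies in the 3′ UTR, and the leading transcripts of both forms are annotated for decay. Mcee, the methylmalonyl-CoA epimerase of mitochondria, had its 338-base exon, the second of 3, at 76.7%, 76.0%, 71.9% and 76.1% in DSS, below 80.8%, 87.9%, 81.3% and 81.1% in FGF1 and below the controls at 78.5% to 84.0% (7.60 ± 2.34 points, adjusted p = 0.575). Sharpin, a subunit of the linear ubiquitin ligase complex, had a 175-base exon at 47.4%, 83.8%, 60.6% and 74.7% in DSS against 40.6% to 49.7% in FGF1, where DSS 1 lay inside the FGF1 range (-21.2 ± 6.50 points, adjusted p = 0.575). Both Sharpin forms are led by retained-intron transcripts, in which the exon is not coding. The 80-base exon of Hspbap1, whose inclusion gives an early stop, was at 39.9%, 96.9%, 11.4% and 19.5% in DSS and 97.7%, 97.7%, 97.2% and 92.5% in FGF1. Levels were low, with both forms together at 2.56 ± 0.626 FPKM in DSS and 1.66 ± 0.195 in FGF1. The skipped form was near 0 in FGF1 (0.0342 to 0.128 FPKM) and in DSS 2 (0.0514 FPKM). The Hspbap1 difference in inclusion was 54.3 ± 17.1 points (adjusted p = 0.575), and 72.7 points without DSS 2, the library that lay with FGF1 (adjusted p = 0.0273). The second value follows from removing the discordant library and is no support for a difference.

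**Figure D2:**
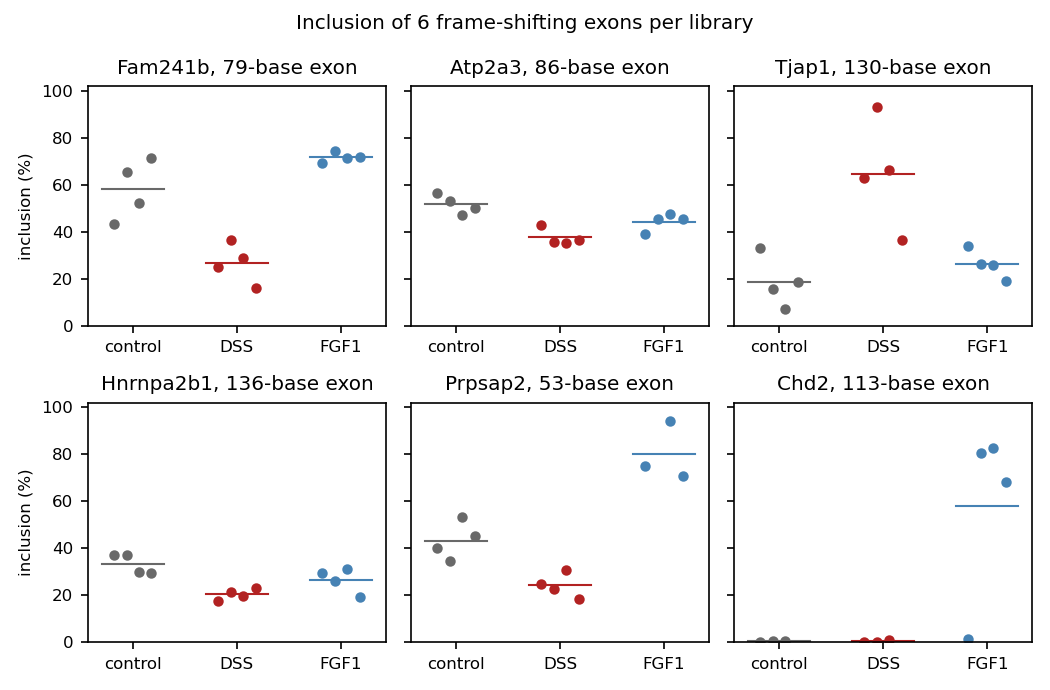
Inclusion (%) of 6 frame-shifting exons in each library of control, DSS and FGF1 (points, in replicate order from left to right), with the group mean as a line; a library that lists neither form has no point. Fam241b, Atp2a3 and Hnrnpa2b1 were lowest in DSS, Tjap1 highest in DSS, Prpsap2 highest in FGF1, and Chd2 above 60% in 3 of 4 FGF1 libraries and under 2% elsewhere.

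In FGF1 against control, 0 of 727 exons passed (limma, Benjamini-Hochberg, 0% of all skipped exons tested), and 36 had an unadjusted p under 0.05 (4.95%, against 5.15% of all). Inclusion was higher in 19 of them (2.61%, against 2.54%) and lower in 17 (2.34%, against 2.6%). The groups did not overlap in 20 exons (2.75%, against 2.72% of all), and the median size of a difference was 3.40 points. This comparison shares its control libraries with DSS against control and its FGF1 libraries with FGF1 against DSS. Apoe codes for the lipid carrier apolipoprotein E, and its 70-base exon in the 5′ UTR was included at 2.07%, 4.85%, 8.46% and 12.9% in control and at 26.2%, 33.1%, 24.7% and 18.9% in FGF1. Those groups did not overlap (18.7 ± 5.21 points, adjusted p = 0.961), and in DSS 3 libraries were at 3.59%, 3.72% and 3.97% and DSS 2 at 26.0%. In FGF1 against DSS the exon did not pass with all libraries (16.4 ± 5.21 points, limma, adjusted p = 0.575). Without DSS 2 it passed (22.0 points, adjusted p = 0.0273). DSS 2 is the DSS library that lay with FGF1, so this call is no support for a difference. Apoe mRNA fell in DSS against control, from 91.1 ± 17.2 to 37.4 ± 9.32 FPKM (log2 fold change -1.27 ± 0.19, adjusted p = 0.00355).

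Cdc26, a subunit of the anaphase-promoting complex, had its 97-base exon included at 59.9% ± 14.9 in control, 66.4% ± 4.71 in DSS and 80.5% ± 6.22 in FGF1, and FGF1 did not overlap either group (20.7 ± 6.72 points over control, adjusted p = 0.961). In Mcrip2, a 133-base exon that brings a stop codon was at 13.2% ± 5.83, 21.5% ± 6.42 and 30.03% ± 11.8 (16.8 ± 5.73 points, adjusted p = 0.961). Flot2, a membrane raft protein, had its 91-base exon at 45.0% ± 31.6, 36.1% ± 14.1 and 5.47% ± 8.29, where 3 FGF1 libraries were at 0.316%, 2.78% and 0.988% (-39.5 ± 13.5 points, adjusted p = 0.961). For Dclre1a, a nuclease of DNA crosslink repair, the 419-base exon was at 45.6% ± 22.6, 11.2% ± 6.66 and 16.2% ± 11.7 (-29.5 ± 10.2 points, adjusted p = 0.961). Its included form is annotated for decay and its skipped form is led by a retained intron.

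**Figure D3:**
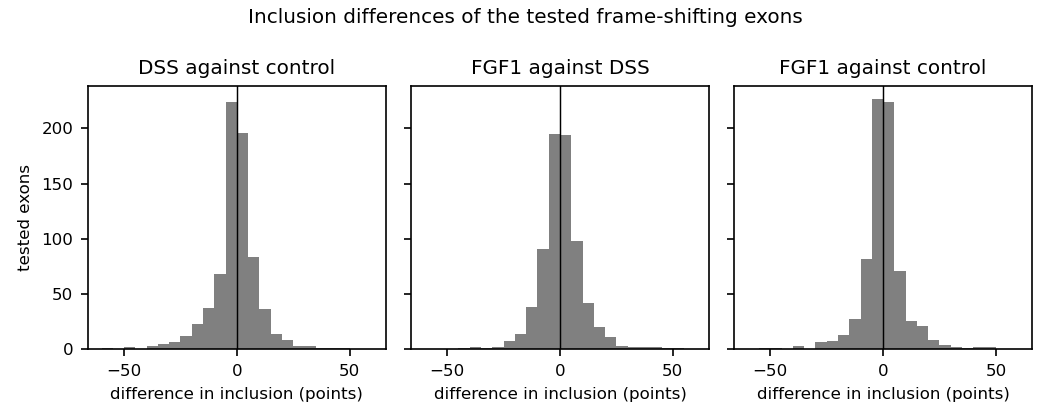
Histograms of the difference in inclusion (points, bins of 5) over the 727 tested frame-shifting exons in the 3 comparisons. All 3 are centred near 0, with median differences of -0.391, 0.341 and -0.0411 points.

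A few exons entered or passed only under other settings and are named here after their values were seen. The Chd2 exon was left out of the 727 because it was under 1 FPKM in 3 libraries. Its included, decay-annotated form was at 0.0160, 0.0421 and 0.0278 FPKM in control 1 to 3, at 0.0238, 0.00675 and 0.0357 in DSS 1 to 3 and at 0.0128, 6.75, 6.66 and 5.55 in FGF1 1 to 4. The skipped, coding form was at 5.38, 6.11 and 5.15 FPKM in those controls, 7.74, 4.64 and 3.90 in DSS and 0.898, 1.64, 1.40 and 2.61 in FGF1. Inclusion was therefore at most 0.907% in the control and DSS libraries that list both forms and 1.41%, 80.4%, 82.6% and 68.0% in FGF1. FGF1 1 lay with the other groups, and its 2 forms summed to only 0.911 FPKM. In control 4 and DSS 4 the skipped form's transcripts were at 5.26 and 4.69 FPKM by their other events and the included form was not listed. Where 3 libraries per group were enough, the exon met the limit of 5% mean inclusion only through the FGF1 libraries in which it was high, and FGF1 1 had no value there because of its low level, so no test of this difference is given.

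The Prpsap2 exon has no value in FGF1 2, where the skipped form was not listed and the included form was at 10.3 FPKM by its other events. Elsewhere inclusion was 40.04%, 34.6%, 53.2% and 45.1% in control, 25.002%, 22.8%, 30.9% and 18.5% in DSS and 75.2%, 94.1% and 70.9% in FGF1 1, 3 and 4. The 3 groups did not overlap. The skipped form was at 7.79 to 9.70 FPKM in DSS and 0.643 to 3.21 in FGF1. It is annotated as a processed transcript, and the stop codon 118 bases behind the junction was read from the included transcript with the exon removed. FGF1 against DSS passed with 3 libraries per group (55.8 ± 6.57 points, adjusted p = 0.00956), without FGF1 2 (adjusted p = 0.00943) and with recovered transcript values (60.8 points, adjusted p = 0.00737). The 439-base exon in the 5′ UTR of Wdr45, an autophagy protein, was at 20.4%, 1.92%, 8.62% and 8.17% in control. It was at 0.477%, 0.826% and 3.58% in DSS 1, 3 and 4 and 34.1%, 24.3%, 35.6% and 29.4% in FGF1. In those DSS libraries the included form was at only 0.0496 to 0.262 FPKM. The skipped form was at 7.04 to 10.9 FPKM there and 1.52 to 3.09 in FGF1. FGF1 against DSS passed with recovered values (29.6 points, adjusted p = 0.0313) and without DSS 2, which has no value as deposited (29.2 points, adjusted p = 0.0273). Isca2, an iron-sulfur cluster assembly factor, had a 116-base exon at 46.9% ± 4.84 in control, 66.6% ± 12.7 in DSS and 48.9% ± 4.25 in FGF1. With all libraries it passed in neither DSS against control (limma, adjusted p = 0.360) nor FGF1 against DSS (adjusted p = 0.575). Without DSS 2, which was at 48.2% beside 70.5%, 77.2% and 70.6%, it passed in DSS against control (25.9 points, adjusted p = 0.0180) and in FGF1 against DSS (-23.9 points, adjusted p = 0.0273). DSS 2 is the library that lay apart from its group, so these calls are no support for a difference.

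**Figure D4:**
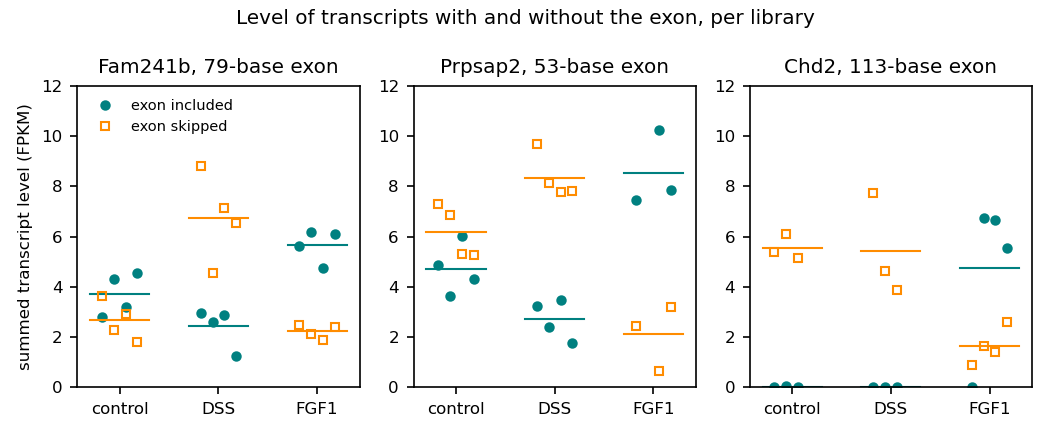
Summed FPKM of the transcripts that include (filled circles) or skip (open squares) the exon of Fam241b, Prpsap2 and Chd2 in each library that lists both forms, with group means as lines. In Fam241b and Prpsap2 the skipped form was the higher one in every DSS library and the included form in every FGF1 library shown; in Chd2 the included form was near 0 in all but 3 FGF1 libraries.

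Splicing regulators are a group in which such exons are known to set mRNA levels. From a list of 60 regulators, 21 genes held 30 tested exons, and from 24 decay factors Rnps1 held 2. The 10 of highest level were read closely, and none passed in any comparison. The Srsf6 exon was included at 5.96%, 9.58%, 8.06% and 6.86% in control, 24.9%, 33.2%, 5.42% and 5.96% in DSS and 14.4%, 39.8%, 44.4% and 5.57% in FGF1. Every control was under 10%, as were DSS 3, DSS 4 and FGF1 4. FGF1 1, at 14.4%, lay above all controls but well below FGF1 2 and 3, and DSS 1 and 2 were several times higher than control. Neither difference against control passed (9.77 ± 8.93 points in DSS, adjusted p = 0.811, and 18.4 ± 8.93 in FGF1, adjusted p = 0.992). The included form reached 13.4 and 17.0 FPKM in DSS 1 and 2 and 23.9 and 26.9 in FGF1 2 and 3, against at most 3.70 in control, while the coding form was at 35.3 ± 5.90, 36.8 ± 10.2 and 37.6 ± 4.78 FPKM.

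The Clk1 exon was included at 69.8%, 72.3%, 42.1% and 54.7% in control, 77.6%, 59.6%, 77.3% and 99.8% in DSS and 44.8%, 63.5%, 64.98% and 71.3% in FGF1, with overlap of all groups (18.9 ± 9.26 points in DSS against control, adjusted p = 0.598). In DSS 4 the skipped form was at 0.0964 FPKM, against 8.72 to 27.5 in control. The Rbm39 exon was low throughout, at 7.46% ± 1.76, 9.50% ± 3.598 and 7.50% ± 2.48 in control, DSS and FGF1, and the Hnrnpl exon at 22.7% ± 5.81, 30.8% ± 9.85 and 26.4% ± 4.69. Srsf2 (104 bases, 3′ UTR) was at 33.2% ± 3.56, 28.3% ± 5.29 and 31.5% ± 2.51, and Hnrnpd (107 bases) at 31.9% ± 6.31, 35.4% ± 7.52 and 38.7% ± 9.63. A 1711-base exon of Hnrnpa1 was at 66.1% ± 2.63, 56.0% ± 6.16 and 60.3% ± 3.82, where 3 DSS libraries were at 51.6% to 54.1% and below all controls (-10.1 ± 3.18 points, adjusted p = 0.392). This exon lies in the 3′ UTR, and its 2 forms are both annotated for decay and also differ elsewhere in the gene. Its inclusion therefore does not set a decay form against a coding form. Esrp1, the epithelial splicing regulator, held neighbouring exons of 151 and 110 bases near the end of its transcript, at 59.4% ± 4.41 and 43.8% ± 11.8 in control. Both were similar in DSS (59.0% ± 8.10 and 45.5% ± 12.3) and FGF1 (56.0% ± 6.02 and 38.1% ± 7.55), and their values come from the same transcripts.

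**Figure D5:**
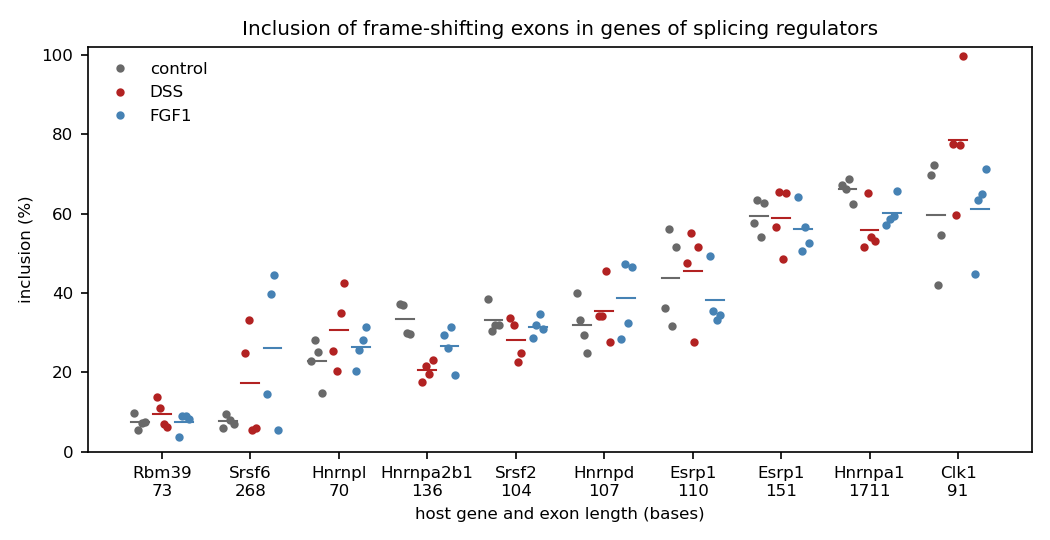
Inclusion (%) of 10 frame-shifting exons in genes of splicing regulators, in each library (points) with group means (lines), ordered by mean inclusion. Rbm39 stayed under 14% in every library, Srsf6 went from under 10% in control to above 39% in 2 FGF1 libraries, and all groups of Clk1 overlapped.

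At the level of mRNA, 3 of 59 tested regulators passed in DSS against control, beside 12.3% of all genes tested. One was higher, as were 2.23% of all genes, and 2 were lower, as were 10.1%. Srsf5, an SR protein, rose from 134 ± 11.5 to 194 ± 27.4 FPKM (log2 fold change 0.52 ± 0.11, adjusted p = 0.0125). The RNA-binding proteins Qk (4.03 ± 1.02 to 0.845 ± 0.415 FPKM, -1.45 ± 0.20, adjusted p = 0.00317) and Celf2 (1.85 ± 0.260 to 0.688 ± 0.2495, -0.76 ± 0.16, adjusted p = 0.0115) fell, and each of the 3 calls held in all 13 alternatives. The smooth muscle, fibroblast, endothelial, leukocyte and enteric neuron and glia markers were also lower in DSS than in control by mean log2 level (given above). The part of this in the mRNA values was not tested. With median-of-ratios scaling 8 genes of the 2 lists passed, 6 higher (Clk4, Esrp2, Hnrnpdl, Srsf5, Upf3a, Xrn1) and 2 lower, and the median of all genes moved from -0.07 to 0.05. Without DSS 1, 9 passed, 1 higher (Srsf5) and 8 lower (Celf2, Gspt1, Hnrnpm, Mbnl2, Nbas, Qk, Tial1, Upf2), among them the decay factors Gspt1, Nbas and Upf2, and the median of all genes was -0.12. The share of all genes that passed was not taken under either setting, so these counts are not a result about the lists. Of 24 decay factors, 0 passed in DSS against control with FPKM as deposited (limma; 5 at an unadjusted p under 0.05, beside 27.7% of all genes), and the list's median log2 fold change was -0.06 beside -0.07 over all genes. In FGF1 against DSS and FGF1 against control, 0 of the 83 genes of both lists passed (limma, beside 0.0557% and 0.0795% of all genes). At an unadjusted p under 0.05 were 5 and 9 of the 59 regulators and 2 and 1 of the 24 decay factors, beside 12.4% and 13.9% of all genes.

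The 5 most abundant frame-shifting exons did not pass in any comparison. Ceacam1 was present at a summed 935 FPKM and included its 53-base exon at 8.79%, 9.67%, 7.27% and 7.98% in control, 9.71%, 6.96%, 6.84% and 5.99% in DSS and 6.27%, 7.39%, 8.87% and 8.34% in FGF1, so that the short-tailed form was the major one in every library. Its difference was -1.05 ± 1.22 points in DSS against control and 0.341 ± 1.22 in FGF1 against DSS (adjusted p = 0.853 and 0.970). Dmbt1, a secreted scavenger receptor of mucosal epithelium, was the highest at 1428 FPKM, with an 82-base exon at 49.0% ± 8.14, 48.1% ± 13.0 and 53.7% ± 5.77. Myl6, a myosin light chain, had a 58-base exon at 26.4% ± 3.71, 23.4% ± 5.32 and 22.9% ± 4.40. In Uqcr10, a subunit of respiratory complex III, an 86-base exon was at 11.0%, 12.7%, 9.76% and 11.1% in control, 9.19%, 9.21%, 8.55% and 8.90% in DSS and 11.6%, 12.6%, 11.5% and 12.3% in FGF1. The transcript that includes this Uqcr10 exon has no coding sequence. DSS lay below both other groups without overlap, with differences of -2.18 ± 1.10 points against control and 3.07 ± 1.10 for FGF1 against DSS (adjusted p = 0.616 and 0.702). Fam162a mRNA rose in DSS from 217 ± 73.4 to 531 ± 155 FPKM (log2 fold change 1.31 ± 0.28, adjusted p = 0.0127), while inclusion of its 109-base exon was 89.4% ± 1.57 in control and 89.7% ± 1.64 in DSS, a difference of 0.232 ± 1.61 points.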

How the data were processed

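Total RNA of 12 colon samples (4 control, 4 DSS, 4 FGF1, grouped by the treatment label) was sequenced after oligo(dT) capture, per the labels. StringTie 1.3.4d, HISAT2 2.0.4, cutadapt 1.9, edgeR (no version) and the build GRCm38 are named in the submitters' processing notes, without their roles. The caller of the splicing events is not given in the sources used here. The authors deposited a table of splicing events with an FPKM value per event, transcript and library, used as deposited. FPKM holds no read counts, so the depth is unknown and no count model was run.

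Event rows were paired by gene, start and end. Among pairs of exon and library, 71863 list both forms, 0 a single form and 56645 neither. Percent inclusion was tested with limma 3.58.1 in R 4.3.3 (two-sided, prior variance trended on mean log2 of summed FPKM), in 1 model of 3 groups over all 1690 skipped exons with at least 1 FPKM in all 12 libraries and mean inclusion of 5% to 95%, with Benjamini-Hochberg adjustment and a threshold of 0.05. Gene values (sum over listed transcripts) were tested with limma on log2(FPKM + 1) over 12578 genes with at least 1 FPKM in at least 4 libraries; fold changes on this scale understate low genes. Positions, transcript types and sequences come from GENCODE M21. On simulated data for DSS against control with 1690 exons, 100 exons were moved by 20 points and another 100 by 40. Of these, 48% and 81% were called, beside 7 of 1490 exons left unmoved. Recovery under Benjamini-Hochberg depends on how many exons differ. Where fewer differ than were moved here, these shares overstate it. Named exons are the called ones and those of smallest p up to 6 a comparison, up to 10 by level in the 2 factor lists, the 5 of highest level and those at the edge of the length rule. One of them is not reported here. The exons, lists and rules were chosen with earlier results of these data known. Alternatives covered filters, scales, scaling, each left-out library and the replicate number as a block, with values recovered from other events added after seeing the data.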

Additional observations from a re-analysis of the deposited data

Results flagged for a closer look

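In 96 groups of 4 libraries (32 exons in 3 groups), 11 held a library whose inclusion stood apart from the other 3 by more than Dixon's 95% critical ratio allows. Chance sets apart about 1 in 20 such groups. In DSS 2, the Apoe 70-base exon was at 26.0% against 3.59% to 3.97% in the other DSS libraries, and the Cdc26 97-base exon at 59.4% against 68.5% to 69.2%. DSS 3 had the Mcee 338-base exon at 71.9%, with the others at 76.0% to 76.7%. In FGF1 2 the same exon was at 87.9% against 80.8% to 81.3%. FGF1 4 had the Hspbap1 exon at 92.5% beside 97.2% to 97.7%, and FGF1 3 the Flot2 exon at 17.8% beside 0.316% to 2.78%. FGF1 1 stood apart in the Rbm39 73-base exon (3.81% against 8.25% to 9.01%) and in the Esrp1 110-base exon (49.4% against 33.3% to 35.4%). Control 2 had the Dmbt1 exon at 36.9% against 52.2% to 54.3%. Control 4 had the Myl6 exon at 20.9% against 27.9% to 28.9%, and the Cyp4f16 exon at 18.7% against 3.48% to 4.56%. These are values of single libraries, and their causes were not tested.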

How the results depend on the processing

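The count of frame-shifting exons that passed in FGF1 against DSS (1) was 3 with at least 1 FPKM in 3 libraries of each group, 3 with recovered transcript values, 0 without DSS 3 and DSS 4, 0 without control 3 and FGF1 3, and 0 to 5 without a single library, the highest without DSS 2. In DSS against control (0) it was 0 to 1 without a single library (1 without DSS 2, 1 without DSS 4), and in FGF1 against control (0) it was 1 with 3 libraries of each group (Chd2, also among the 3 against DSS, which entered only through FGF1 libraries where it was high and without FGF1 1, so the count supports no difference). The exons behind these counts are named in the text. Where the library left out was the one that lay apart from its group, an added call is no support for a difference. Of the 364 alternative values of named exon differences, 352 kept direction and side of the threshold, 10 lost the Fam241b call, 2 gained one, and 0 changed direction. Among factor genes in DSS against control (3) the count was 8 with median-of-ratios scaling and 3 to 9 without a single library, the highest without DSS 1 and 5 without DSS 2. For these alternatives no share of all genes was taken, so the counts are not a result about the lists. In FGF1 against control (0) it was 1 with only the 2 groups compared (Hnrnpu) and 0 to 1 without a single library (Qk, without FGF1 3). Requiring both forms in all libraries left the same table by construction. With the replicate number as a block, the FGF1 against DSS count was 0 (Fam241b adjusted p = 0.0727), and the other counts did not change. The deviations of samples with the same number had correlations of -0.0951 to 0.0220 over 12 pairs, against -0.0802 to 0.0895 for other pairs. Such values cannot show a shared factor that touches few exons, so whether the numbers mark a pairing is not settled by them. Causes were not tested. FPKM gives no counting error, and exons absent from a library have no value there, which limits what can be seen of forms near 0.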
